A study of Mus musculus with 37 samples.

Results

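The AP-1 transcription factors were followed through liver regeneration as 8 genes: the Fos family (Fos, Fosb, Fosl1, Fosl2), the Jun family (Jun, Junb, Jund) and Atf3. They were chosen by gene symbol from a table of 55487 genes, and all 8 were found and passed the filter on low counts, among 15564 genes tested. The table holds RNA sequencing counts of 37 mouse liver samples from a study that asked how deletion of Nox4, an NADPH oxidase that makes hydrogen peroxide, affects regeneration. Livers were collected 6 h, 24 h, 48 h or 7 d after removal of most of the liver (partial hepatectomy) or after a sham operation. The NOX4 knockout (KO) gave 5 sham livers and 3, 4, 4 and 3 livers at 6 h, 24 h, 48 h and 7 d. For the wild type (WT) there were 3, 3, 4 and 3 such livers, beside 5 sham ones. The sham times were mixed within a genotype: replicate 5 of each was taken at 6 h, KO replicate 1 and WT replicate 3 at 24 h, 2 of each genotype at 48 h, KO replicate 4 at 72 h and WT replicate 1 at 7 d. All livers of the 6 h hepatectomy groups came from males, while each of the other groups held both sexes. The labels give no strain, no age, no account of which exons were deleted or in which cells, and no statement that each sample is a separate animal. The p-values therefore measure the spread between these samples, which may be partly technical.

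AP-1 is a family of paired transcription factors that bind DNA through a basic region and dimerize through a leucine zipper. Jun proteins pair with themselves or with Fos proteins, whereas Fos proteins need a Jun partner, and Atf3 joins Jun proteins or pairs with itself. Fos, Fosb, Jun, Junb and Atf3 are immediate early genes: kinases of the MAPK pathways act on factors already present at their promoters, so transcripts appear without new protein synthesis and most are short lived. Fosl1 and Fosl2 tend to follow later, and Jund is expressed more steadily. In liver, Jun is required for normal hepatocyte proliferation after partial hepatectomy in mice, and Atf3 is a stress-inducible factor that often represses transcription.

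Part of this regulation lies close to the start of the genes. RefSeq promoter windows (build GRCm38.p6) were held for 7 of the 8 genes, all but Fosl1. The 5 sequences below are those whose RefSeq start lay within 100 bases of a coding transcript start in the GENCODE M21 annotation. The windows of Fosl2 and Jund began farther away and are not printed, so matches counted for them may not describe the annotated start. Each printed sequence carries the element TGACG, to which factors of the CREB and ATF group bind, or the related AP-1 and ATF element TGACNTCA. Each runs 5′ to 3′ along the gene's own strand over the 150 bases before the RefSeq start. Capitals mark TGACG, its reverse complement CGTCA, or, in Jun, TGACNTCA.
Fos (chr12:85473740-85473889, plus strand): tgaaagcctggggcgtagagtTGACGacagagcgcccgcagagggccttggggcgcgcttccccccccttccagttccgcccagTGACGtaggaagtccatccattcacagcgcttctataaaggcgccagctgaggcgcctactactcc
Fosb (chr7:19310046-19310195, minus strand): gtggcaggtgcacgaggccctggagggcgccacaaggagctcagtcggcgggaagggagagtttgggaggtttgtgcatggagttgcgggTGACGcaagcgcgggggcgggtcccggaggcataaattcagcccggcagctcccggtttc
Jun (chr4:95052223-95052372, minus strand): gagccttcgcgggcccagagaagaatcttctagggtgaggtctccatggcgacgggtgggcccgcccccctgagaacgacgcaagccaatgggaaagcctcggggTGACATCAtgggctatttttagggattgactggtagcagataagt
Junb (chr8:84978749-84978898, minus strand): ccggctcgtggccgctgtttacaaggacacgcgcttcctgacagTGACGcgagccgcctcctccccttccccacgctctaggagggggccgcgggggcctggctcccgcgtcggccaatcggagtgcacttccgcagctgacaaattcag
Atf3 (chr1:191183334-191183483, minus strand): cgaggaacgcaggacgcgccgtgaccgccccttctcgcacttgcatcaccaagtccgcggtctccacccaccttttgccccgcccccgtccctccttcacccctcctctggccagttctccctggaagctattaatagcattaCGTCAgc

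TGACG stood on either strand within the 250 bases before the start in 4 of the 7 genes (Fos, Fosb, Junb and Atf3), and in 17.8% of all 32851 RefSeq mouse promoter windows. In Fos it occurred at 2 places, from 129 and from 66 bases before the start. The longer TGACGT, which contains TGACG, was found in Fos and Atf3 and in 6.47% of all windows. TGACNTCA, which can overlap TGACG, was found in Jun alone of the 7, 45 to 38 bases before the start, and in 7.49% of all windows. TGANTCA, a loose form of the classic AP-1 element, was in none of the 7 windows and in 6.75% of all of them. A TATAAA box stood in the Fos window, from 33 bases before the start, and in 12.4% of all windows. The serum response element was in none of the 7 windows and in 1.47% of all, and sequence farther than 250 bases from the start was not searched. These are matches of letters only, with no measurement of binding.

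Total counts ranged from 26232544 to 48827025 per library, and levels below are in CPM, counts per 1000000 counts of library size after TMM scaling, whose factors ran from 0.658 to 1.36. Nox4, the targeted gene, was lower in KO than in WT livers by 2.82 on the log2 scale averaged over the stages (SE 0.28, edgeR adjusted p = 4.27e-08). Its male minus female term was larger, 3.58 (SE 0.34, edgeR adjusted p = 2.67e-09), and the genotype ranges overlapped at every stage but 6 h, with 0.153 to 4.98 CPM in KO sham and 1.29 to 19.1 CPM in WT sham livers. Within each sex at each stage, every KO liver was below every WT liver. Markers of hepatocytes, the main cell of the labelled tissue, summed to at least 46831 CPM in every library. A few libraries stood apart in the AP-1 genes and are followed below. KO 6 h replicate 2 was the lowest of its group for all 8 genes. Among the KO 24 h livers, replicate 3 was the highest and replicate 1 the lowest for all 8. WT sham replicate 5, a sham liver taken at 6 h, was the highest WT sham liver for 7 of the 8. WT 24 h replicate 3 had the largest share of mitochondrial counts, 8.93% against a minimum of 3.17%. In bulk liver RNA, fewer cells of a type and less RNA per cell cannot be told apart.

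**Figure D1:**
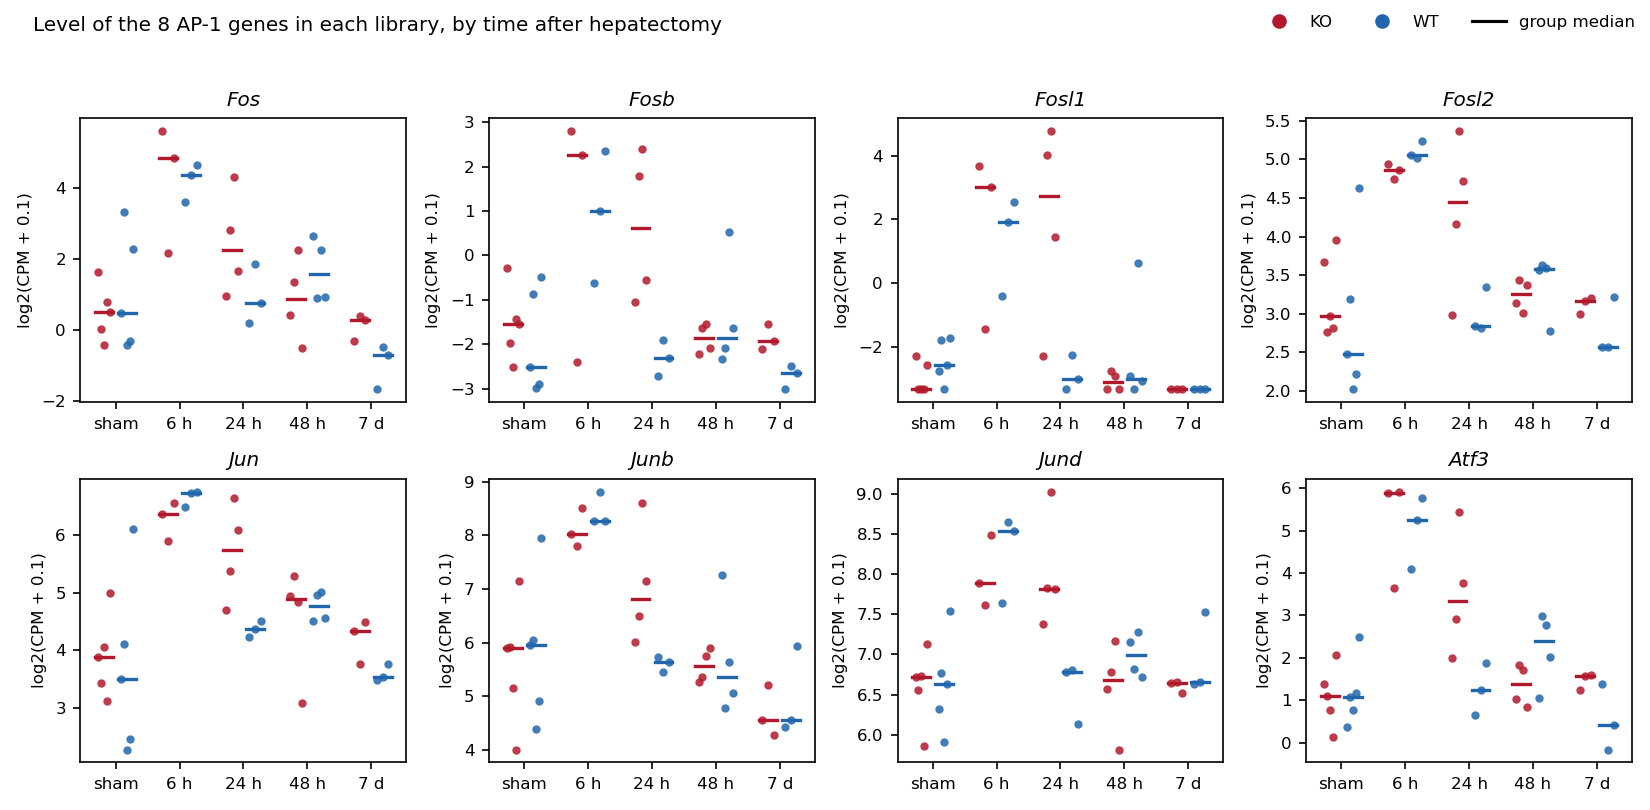
Level of each AP-1 gene in every library, as log2(CPM + 0.1), with KO in red to the left of WT in blue at each stage and a bar at the group median; each panel has its own vertical scale. The 6 h groups stand highest in most panels, the KO 24 h livers spread widely above the WT 24 h livers, and the 7 d livers lie near the sham livers.

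Fos was the most abundant Fos-family transcript per base at 6 h in both genotypes, by group median. Fos (chromosome 12, 85473890 to 85477273, plus strand, GRCm38) encodes the founding, rapidly induced member of the family. It stood at 48.8, 4.46 and 29.2 CPM in KO 6 h replicates 1 to 3, against 3.01, 0.920, 0.648, 1.64 and 1.32 CPM in KO sham replicates 1 to 5. Every KO 6 h liver lay above every KO sham liver, although replicate 2 was close to the sham range. The fitted rise was 4.02 on the log2 scale (SE 0.81, edgeR adjusted p = 0.00263). In the WT, Fos was 12.2, 20.7 and 25.2 CPM at 6 h, against 1.31, 10.1, 0.648, 0.712 and 4.75 CPM in the sham livers. These WT groups also did not overlap, but 1 sham liver, replicate 2, came near the lowest 6 h liver. The WT difference of 2.02 (SE 0.83) did not pass (edgeR adjusted p = 0.127), and without WT sham replicate 2 it was 3.10 and passed (edgeR adjusted p = 0.0153). At 24 h Fos was 1.86, 6.97, 20.1 and 3.09 CPM in KO livers and 1.06, 3.53 and 1.6 CPM in WT livers. The KO rise from sham at 24 h was 2.36 (SE 0.74, edgeR adjusted p = 0.0173) and lost its call without KO 24 h replicate 3 (1.49, edgeR adjusted p = 0.160). The groups overlapped, with replicate 1 inside the sham range.

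Fosb (chromosome 7, 19302696 to 19310051, minus strand) is a close relative of Fos that was scarce in sham livers. It stood at 6.85, 0.0898 and 4.70 CPM in KO 6 h livers, against 0.725, 0.153, 0.0748, 0.270 and 0.243 CPM in KO sham livers. Replicate 2, with 3 counts, lay within the sham range, whereas the other two 6 h livers were well above it. The fitted rise was 3.55 (SE 0.96, edgeR adjusted p = 0.0226), and it was 4.13 (SE 0.91, edgeR adjusted p = 0.00531) without replicate 2. It lost its call without KO 6 h replicate 1 or 3 or KO sham replicate 3 or 4. In the WT, Fosb was 0.555, 1.90 and 4.99 CPM at 6 h, against 0.0740, 0.446, 0.0259, 0.0339 and 0.611 CPM in sham livers, and the difference of 3.02 (SE 1.01) did not pass (edgeR adjusted p = 0.0609). At 24 h Fosb was 0.387, 3.34, 5.19 and 0.585 CPM in KO livers and 0.0528, 0.167 and 0.102 CPM in WT livers. The 24 h genotype ranges did not overlap. The KO rise from sham at 24 h was 2.94 (SE 0.90, edgeR adjusted p = 0.0156), and it was also lost without KO 24 h replicate 3.

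Fosl1 (chromosome 19, 5447547 to 5455946, plus strand), which encodes Fra-1, was close to absent from sham livers and was the gene of the family with the largest fitted rises. It had 4, 0, 0, 0 and 2 counts in KO sham livers and 2, 9, 0, 2 and 6 counts in WT sham livers. In KO 6 h livers it had 300, 9 and 160 counts (12.6, 0.269 and 8.0 CPM), and in WT 6 h livers 18, 84 and 143 counts (0.666, 3.71 and 5.80 CPM). All livers of both 6 h groups lay above all sham livers of their genotype, KO replicate 2 by the least. The fitted KO rise was 7.44 (SE 1.59, edgeR adjusted p = 0.00543), and the WT difference of 4.69 (SE 1.54) did not pass (edgeR adjusted p = 0.0586). At 24 h the gene had 3, 543, 610 and 63 counts in KO livers (0.105, 16.0, 27.1 and 2.63 CPM) and 0, 4 and 1 counts in WT livers. KO replicates 2 to 4 were far above every WT 24 h liver and every sham liver, while replicate 1 was not. The KO rise from sham at 24 h was 8.20 (SE 1.55, edgeR adjusted p = 0.000467). With so few sham counts these fitted values have a wide error and serve mainly for direction. The call held whichever library was left out, with a lowest value of 7.41.

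Fosl2 (chromosome 5, 32135801 to 32157842, plus strand), which encodes Fra-2, was the main Fos-family transcript per base of sham livers by group median. It had the smallest fitted changes within the family at 6 h and in the KO at 24 h. It was 30.5, 26.7 and 29.0 CPM in KO 6 h livers, against 12.6, 6.68, 7.75, 6.95 and 15.4 CPM in KO sham livers. In the WT it was 33.3, 32.3 and 37.8 CPM at 6 h, against 5.50, 9.01, 3.96, 4.58 and 24.6 CPM in sham livers. Neither pair of groups overlapped, and the highest WT sham liver was the one taken at 6 h. The rise was 1.40 in the KO (SE 0.41, edgeR adjusted p = 0.0343) and 1.68 in the WT (SE 0.41, edgeR adjusted p = 0.0127). The KO call was lost in 7 of the 8 fits that each left out 1 library. At 24 h Fosl2 was 7.80, 17.8, 41.1 and 26.3 CPM in KO livers and 7.05, 6.92 and 10.1 CPM in WT livers, and the KO rise from sham was 1.27 (SE 0.38, edgeR adjusted p = 0.0129). KO replicates 2 to 4 were above the WT livers and replicate 1 was among them. That rise lost its call without KO 24 h replicate 3 or 4.

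Jun (chromosome 4, 95049034 to 95052222, minus strand) encodes the c-Jun protein, the activating partner of most Fos proteins. It was 82.8, 59.5 and 94.3 CPM in KO 6 h livers, against 14.7, 10.7, 16.7, 8.61 and 31.8 CPM in KO sham livers. In the WT it was 89.9, 106 and 108 CPM at 6 h, against 11.3, 17.1, 4.77, 5.39 and 69.2 CPM in sham livers. The groups did not overlap in either genotype, and in both the highest sham liver was replicate 5, taken at 6 h. Jun rose by 2.0 in the KO (SE 0.53, edgeR adjusted p = 0.0199) and by 2.03 in the WT (SE 0.52, edgeR adjusted p = 0.0159). Without the 6 h sham livers the rises were 2.51 in the KO and 3.23 in the WT. The KO call was lost in 4 of 8 fits that each left out 1 library, and the WT call in 2 of 8. Fits of the compared groups alone lost both calls, and male libraries alone lost the WT call. At 24 h Jun was 25.9, 41.5, 99.9 and 68.1 CPM in KO livers and 18.7, 20.7 and 22.8 CPM in WT livers. The KO rise from sham at 24 h was 1.88 (SE 0.49, edgeR adjusted p = 0.00505) and held whichever library was left out.

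Junb (chromosome 8, 84974484 to 84978718, minus strand), a Jun relative that can oppose Jun on some promoters, was more abundant than Jun in every group on the per-length scale used below. It was 259, 225 and 365 CPM in KO 6 h livers, against 59.3, 60.2, 35.6, 15.9 and 142 CPM in KO sham livers. In the WT it was 307, 452 and 309 CPM at 6 h, against 62.2, 65.8, 20.7, 29.8 and 248 CPM in sham livers. Neither pair of groups overlapped, yet neither difference passed. It was 1.87 in the KO (SE 0.60, edgeR adjusted p = 0.0522) and 1.79 in the WT (SE 0.59, edgeR adjusted p = 0.0574). Without the 6 h sham livers both passed, at 2.46 in the KO (edgeR adjusted p = 0.00564) and 2.69 in the WT (edgeR adjusted p = 0.00195). At 24 h Junb was 64.4, 89.6, 388 and 142 CPM in KO livers and 53.2, 43.9 and 49.4 CPM in WT livers, with no overlap. The KO rise from sham at 24 h, 1.45 (SE 0.54, edgeR adjusted p = 0.0455), was close to the threshold and was lost without any of 5 single libraries, KO 24 h replicates 3 and 4 and KO sham replicates 1, 3 and 4.

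Jund (chromosome 8, 70698949 to 70700616, plus strand), the steadily expressed Jun protein of resting cells, showed the smallest fitted change at 6 h in both genotypes. It was 237, 195 and 358 CPM in KO 6 h livers, against 105, 94.3, 106, 58.0 and 140 CPM in KO sham livers. In the WT it was 199, 402 and 371 CPM at 6 h, against 79.7, 109, 60.3, 99.4 and 186 CPM in sham livers. All 6 h livers lay above the sham livers of their genotype. The rise was 1.25 in the KO (SE 0.35, edgeR adjusted p = 0.0260) and 1.42 in the WT (SE 0.35, edgeR adjusted p = 0.0128). The KO call was lost in 4 of 8 fits that each left out 1 library, and the WT call in 3 of 8. Both were also lost in the compared groups alone and in male libraries alone. At 24 h Jund was 166, 227, 522 and 224 CPM in KO livers and 110, 111 and 70.2 CPM in WT livers. It was the only one of the 8 genes for which every KO 24 h liver exceeded every KO sham liver (a pattern found in 4.59% of all genes tested), with a rise of 1.48 (SE 0.32, edgeR adjusted p = 0.00107).

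Atf3 (chromosome 1, 191170296 to 191218039, minus strand) gave the smallest p of the 8 genes at 6 h in both genotypes. It was 58.8, 12.3 and 60.3 CPM in KO 6 h livers, against 2.52, 2.05, 1.59, 1.00 and 4.06 CPM in KO sham livers. In the WT it was 17.1, 37.8 and 54.2 CPM at 6 h, against 1.18, 2.02, 1.61, 2.14 and 5.56 CPM in sham livers. The lowest 6 h liver of each genotype was well above the highest sham liver. Atf3 rose by 4.23 in the KO (SE 0.64, edgeR adjusted p = 0.000298) and by 3.78 in the WT (SE 0.64, edgeR adjusted p = 0.000878), and both calls held whichever library was left out. At 24 h it was 3.90, 7.44, 43.5 and 13.4 CPM in KO livers and 1.48, 2.28 and 3.59 CPM in WT livers. KO replicate 1 was just above the highest WT liver and inside the sham range. The KO rise from sham at 24 h was 2.92 (SE 0.59, edgeR adjusted p = 0.000641) and also held in every such fit.

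Counted together, 7 of the 8 genes rose in KO 6 h livers against KO sham, all but Junb, where 4.11% of all genes tested were called higher and 6.62% in either direction. In WT 6 h livers 4 of the 8 rose against WT sham (Fosl2, Jun, Jund and Atf3), where 4.16% of all genes were called higher and 7.86% in either direction. The median log2 change of the 8 genes was 2.78 in the KO and 2.03 in the WT, against -0.00 and 0.02 for all genes tested in the KO and the WT. In each genotype 7 of the 8 genes, all but Fosb, lay higher in every 6 h liver than in every sham liver, as did 8.44% of all genes in the KO and 8.16% in the WT. The KO count was 3 without KO 6 h replicate 1, KO 6 h replicate 3 or KO sham replicate 4, and 4 without KO sham replicate 1. The WT count was 1 without WT 6 h replicate 3 or WT sham replicate 1. With only male libraries the counts were 4 in the KO and 0 in the WT. In fits of the compared groups alone they were 2 in the KO and 0 in the WT. Because the 6 h livers were all male, sex and operation were separated only through the other groups. In the model the male minus female term was positive for all 8 genes, from 0.18 to 0.82 on the log2 scale, and called for none (3.59% of all genes were called).

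The 2 genotypes were not shown to differ at 6 h. KO minus WT log2 differences at 6 h ran from -0.36 for Jun (SE 0.58) to 1.03 for Fosl1 (SE 1.3), and edgeR called none of the 8 genes (0.116% of all genes were called). The standard errors ran from 0.38 to 1.3, so that differences of this order would not have been detectable. Fosl2 was lower in every KO 6 h liver than in every WT 6 h liver, as were 9.29% of all genes, and its difference of -0.26 (SE 0.46) did not pass. The interaction at 6 h, which sets the KO change from sham against the WT change, was called for none of the 8 and for 0% of all genes, with 715 of 15564 genes at an unadjusted p under 0.05.

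**Figure D2:**
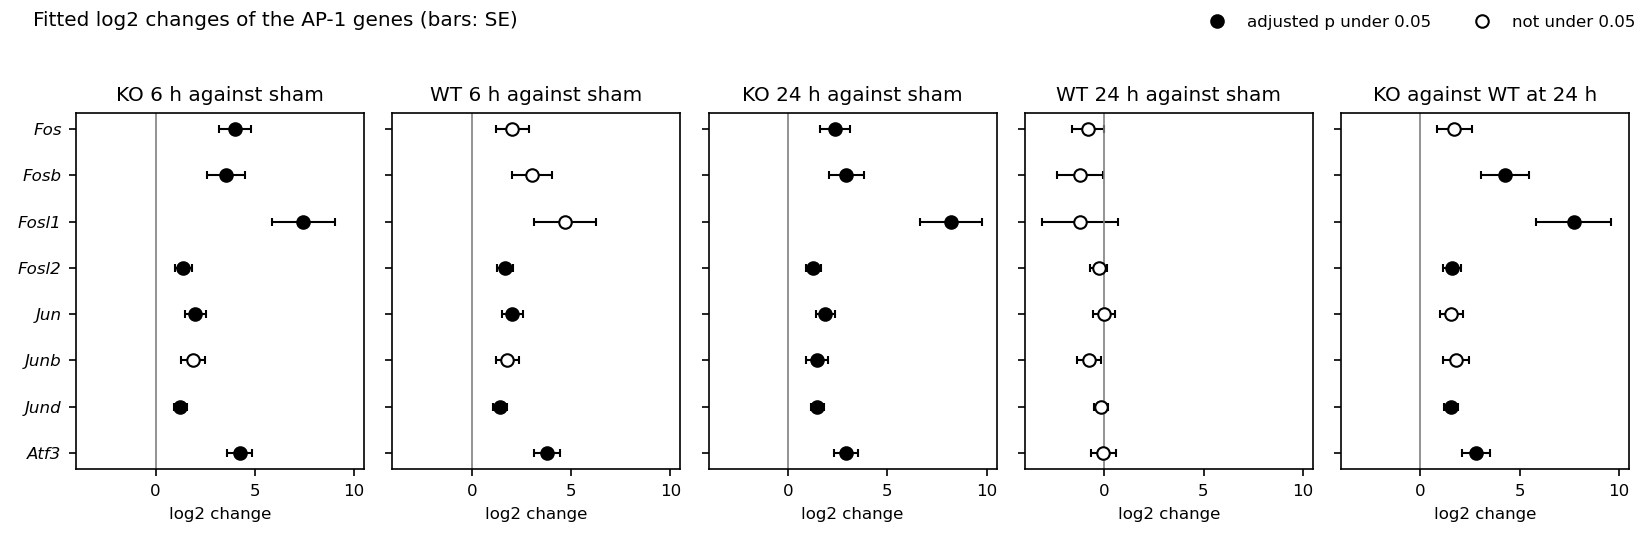
Fitted log2 change of each gene in 5 comparisons, KO 6 h, WT 6 h, KO 24 h and WT 24 h livers against sham livers of the same genotype, and KO against WT at 24 h; bars are standard errors and filled points have an edgeR adjusted p under 0.05. All 8 genes are filled in the KO at 24 h and none in the WT at 24 h, where the points lie near or below 0.

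At 24 h calls were made in the KO and not in the WT. All 8 genes were higher in KO 24 h livers than in KO sham livers (15.9% of all genes were called higher and 28% in either direction). In WT 24 h livers none of the 8 passed against WT sham (0.925% of all genes were called), and their log2 differences ran from -1.23 for Fosl1 (SE 1.92) to -0.00 for Jun (SE 0.56). The median log2 difference of the 8 genes from sham was 2.12 in the KO and -0.53 in the WT. The KO count of 8 fell to 4 without KO 24 h replicate 3, when Fosl1, Jun, Jund and Atf3 kept their calls, and stayed at 8 without the low replicate 1. It was 6 in a fit of the compared groups alone and in male libraries alone, which both lost Fosl2 and Junb, and 7 without a sex term or with RLE scaling, which both lost Junb.

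Set directly against each other at 24 h, KO livers had higher Fosb, Fosl1, Fosl2, Jund and Atf3 than WT livers, 5 of the 8 genes (11.1% of all genes were called higher and 18.6% in either direction). The differences were 4.26 for Fosb (SE 1.23, edgeR adjusted p = 0.0175), 7.72 for Fosl1 (SE 1.90, edgeR adjusted p = 0.0084), 1.57 for Fosl2 (SE 0.45), 1.54 for Jund (SE 0.37) and 2.79 for Atf3 (SE 0.71, edgeR adjusted p = 0.00887). Jun (1.55, edgeR adjusted p = 0.0551) and Junb (1.81, edgeR adjusted p = 0.0505) were just outside the threshold, and Fos (1.70, SE 0.88) was farther from it. In 5 of the 8 genes (Fosb, Jun, Junb, Jund, Atf3) every KO liver exceeded every WT liver, as in 6.14% of all genes. The interaction with hepatectomy at 24 h, which compares the change from sham between the genotypes, was called for Fosl1 (9.43, SE 2.46), Jund (1.66, SE 0.47) and Atf3 (2.97, SE 0.87), with edgeR adjusted p-values of 0.0218, 0.0294 and 0.0339. Of all genes 5.52% were called higher in this interaction and 8.47% in either direction. KO 24 h and WT 24 h livers enter both tests, so the interaction is not a separate line of evidence.

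Of the 5 genes called in KO against WT at 24 h, 4 lost their call without some single library. The count of 5 was 2 without KO 24 h replicate 3 and 3 without WT 24 h replicate 1. It was also 3 without WT 24 h replicate 3, the liver with the largest share of mitochondrial counts. Jund missed the threshold without WT 24 h replicate 3 (1.23, edgeR adjusted p = 0.0505), whereas Fosl1 kept its call without any one library. The interaction count of 3 was 0 without WT 24 h replicate 3, 1 without KO 24 h replicate 3, KO 24 h replicate 4, KO sham replicate 4 or WT sham replicate 5, and 8 without KO 24 h replicate 1. A fit of the compared groups alone called 0 genes in the whole table for KO against WT at 24 h, with 2266 genes at an unadjusted p under 0.05. In the same kind of fit for the interaction it also called 0 genes, with 3082 at an unadjusted p under 0.05. DESeq2 called 7 of the 8 genes in both tests. The share of all genes that DESeq2 called is not given here, so its counts cannot be set against a background.

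In 2 groups, KO 24 h and KO 6 h, some liver stood at one end of the range for all 8 genes, and in the other groups none did. KO 24 h replicate 3 had the highest and replicate 1 the lowest value in all 8 genes (522 and 166 CPM for Jund, 27.1 and 0.105 CPM for Fosl1). Replicate 1 nevertheless stood above all KO sham livers for Jund, and above all WT 24 h livers for Fosb, Jun, Junb, Jund and Atf3. KO 6 h replicate 2 was lowest throughout, but mainly in Fos, Fosb, Fosl1 and Atf3: its Fosl2, Jun, Junb and Jund lay close to those of the other two livers. WT 48 h replicate 3 had 61 counts of Fosl1 (1.45 CPM), when the other WT 48 h livers had 0 or 1, and also the highest Fosb of its group at 1.33 CPM. Labels record sex for these livers: KO 24 h replicates 1 and 4 were female and replicates 2 and 3 male. The part of sex in the KO 24 h spread was not tested within the group.

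**Figure D3:**
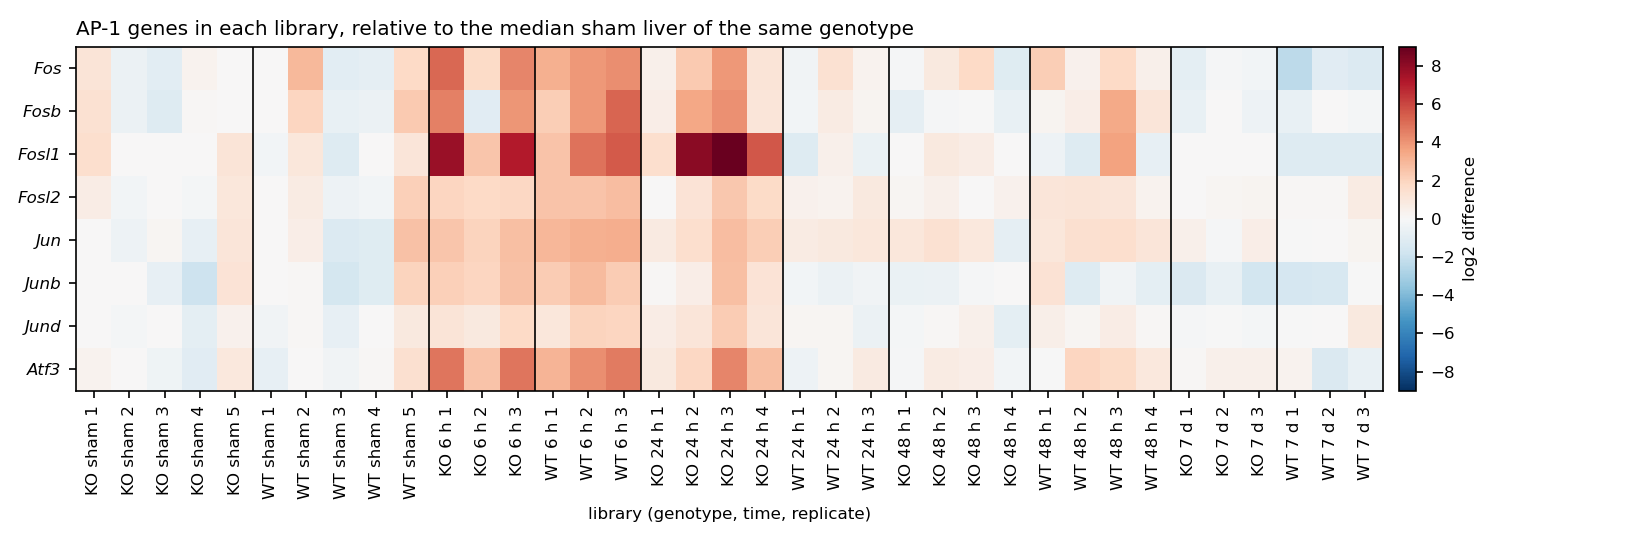
Each column is a library and each row a gene, coloured by log2 CPM (prior count 2) minus the median of the sham livers of the same genotype, so sham libraries centre on 0. Columns of KO 6 h and WT 6 h are red in nearly every row, KO 24 h replicates 2 to 4 lie above 0 in every row with replicate 1 below them in each, and no value of the 7 d columns is above 0.895.

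The makeup of the Fos family shifted with time, as judged from CPM per kb of the longest coding transcript (GENCODE M21), a scale on which levels of different genes can be set side by side. In sham livers Fosl2 gave a median of 68.2% of Fos-family transcripts in the KO and 59.9% in the WT, and Fos 29.1% in the KO and 35.8% in the WT. At 6 h Fos was the largest share, with a median of 58.1% in KO livers and 53.9% in WT livers. KO 6 h replicate 2 had a makeup nearer to sham livers, with 64.1% Fosl2 and 33.2% Fos. At 24 h the KO livers had another pattern: Fosl1 made up 2.53%, 55.4%, 45.8% and 20.0% of the family in replicates 1 to 4, against at most 2.10% in WT 24 h livers. Total Fos-family level was 2.24 to 31.7 CPM per kb in KO 24 h livers and 1.59 to 2.84 CPM per kb in WT 24 h livers. By 7 d Fosl2 was again the main member, at 67.7% to 76.6% in the KO and 74.2% to 89.2% in the WT. These shares are descriptions of the libraries and were not tested.

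**Figure D4:**
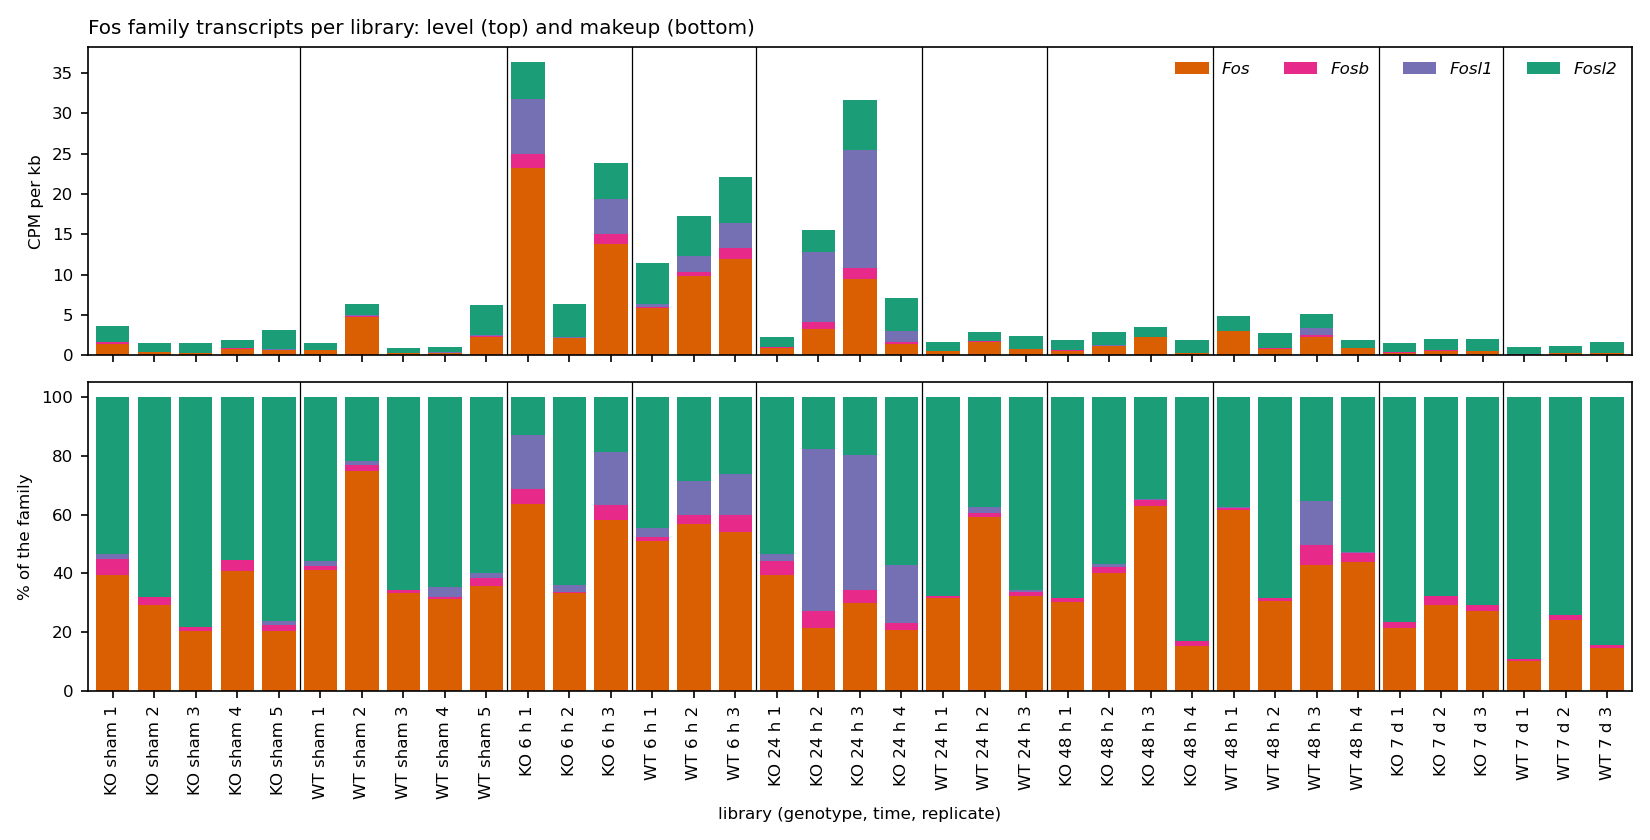
Top, summed level of the Fos family in each library in CPM per kb of transcript, stacked by gene; bottom, the same as a percentage of the family. Fos (orange) dominates most 6 h livers, Fosl1 (purple) reaches 55.4% and 45.8% in KO 24 h replicates 2 and 3 and 15.0% in WT 48 h replicate 3, and Fosl2 (green) makes up most of the family in most sham and 7 d livers.

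Within the Jun family the shift was smaller. On the same per-kb scale Jund gave a median of 62.7% of Jun-family transcripts in KO sham and 61.0% in WT sham livers, and Jun itself only 5.79% in KO sham and 4.12% in WT sham livers. At 6 h Junb reached a median of 46.0% in KO and 47.6% in WT livers, level with Jund at 45.6% in KO and 46.0% in WT livers. At 24 h Jund was 62.9% in KO and 65.1% in WT livers, so the Jun-family makeup was close between genotypes while its total was not: 143 to 559 CPM per kb in KO and 76.5 to 101 CPM per kb in WT livers. Total Jun-family level exceeded total Fos-family level in every group.

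By 48 h and 7 d no gene of the family passed in either genotype. At 48 h the KO values against sham ran from -0.71 for Fosb (SE 0.99) to 0.50 for Jun (SE 0.49) on the log2 scale, with 3% of all genes called. The WT values ran from -0.35 for Junb (SE 0.55) to 1.98 for Fosl1 (SE 1.36), with 8.29% of all genes called. Atf3 in the WT was 1.96, 7.87, 6.70 and 3.97 CPM at 48 h, and its difference of 1.09 (SE 0.57) did not pass. Fosl2 was 8.75, 10.8, 7.98 and 10.2 CPM in KO 48 h livers and 11.8, 12.3, 12.0 and 6.76 CPM in WT 48 h livers. KO against WT at 48 h called none of the 8 genes (0.341% of all genes), with all 8 differences negative, from -0.31 for Fosl2 (SE 0.40) to -4.27 for Fosl1 (SE 1.96). The Fosl1 value there rests on 61 of the 63 WT counts coming from 1 library.

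At 7 d Fosl1 had 0 counts in all KO and all WT livers, where 3 counts over the group correspond to 0.0258 CPM in the KO and 0.0263 CPM in the WT, and no fold is given. Its KO against WT difference and its interaction at 7 d could not be estimated (SE 9392 and 21536), so neither could be called. Fos was 0.705, 1.23 and 1.13 CPM in KO 7 d livers and 0.215, 0.614 and 0.513 CPM in WT 7 d livers. Every WT 7 d liver was below every WT sham liver for Fos, as in 1.61% of all genes, but the difference of -3.27 (SE 0.96) did not pass (edgeR adjusted p = 0.560, unadjusted p = 0.00191). No gene in the whole table passed at 7 d against sham in either genotype, where 497 genes in the KO and 950 in the WT had an unadjusted p under 0.05. Fos and Fosb were higher in every KO than every WT 7 d liver, as in 6.38% of all genes, and neither difference passed (0.045% of all genes were called in KO against WT at 7 d). The interactions at 48 h and 7 d called none of the 8 and 0% of all genes, with 1198 and 347 genes at an unadjusted p under 0.05.

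Sham livers of the genotypes were also not shown to differ. KO minus WT log2 differences in sham livers ran from -1.71 for Fosl1 (SE 1.73) to 0.11 for Fosb (SE 0.92), and none of the 8 passed (0.276% of all genes were called). Averaged over the 5 stages none of the 8 genes passed (2.72% of all genes were called). For Fosl1 this average could not be estimated (SE 2926), because both 7 d groups had 0 counts. In the order of the group medians of each gene, 67 of 72 neighbouring pairs of groups overlapped. The medians at 6 h were the highest in the order for 7 of the 8 genes and for Fosl1 the KO 24 h median was highest, at 9.33 CPM, followed by KO 6 h at 8.0 CPM. KO 24 h ranked 3 in 6 genes, 2 in Fosb and 1 in Fosl1, so the top 3 groups of every gene were KO 6 h, WT 6 h and KO 24 h.

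Each gene had a nearest neighbour in expression across the 37 libraries, taken by Pearson correlation of log2 CPM among 11662 genes with a mean of at least 1 CPM. These values describe libraries that share operations, sexes and depth, and no p is attached. Fos was most like Egr1 (r = 0.90), another immediate early transcription factor. Fosb was most like Hmox1 (0.89), the haem-degrading enzyme haem oxygenase, and Fosl1 like Itpkc (0.95) and Sphk1 (0.94), a kinase that makes sphingosine 1-phosphate. Fosl2 was most like the antiproliferative early gene Btg2 (0.95) and the interleukin-1 receptor Il1r1 (0.95). Jun was closest to the histone methyltransferase Dot1l (0.91), and Junb to Zfp36 (0.93), which destabilizes cytokine mRNAs, and to the STAT feedback inhibitor Socs3 (0.91). Atf3 was closest to the ETS factor Ets2 (0.94). For Jund the closest was Gm11175 (0.94), an antisense gene that overlaps Jund, followed by 1700017B05Rik (0.92) and the NF-kB subunit Rela (0.92).

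Overlap with other genes bears on 5 of the 8. In GENCODE M21, Jun is overlapped by the antisense gene Junos, Jund by Gm11175, Junb by Prdx2, Fosl1 by Ccdc85b and Atf3 by the small RNA gene Gm24748. The library kit keeps strand, per the labels, but the strand setting of the counting is not given in the sources used here, so reads could have been shared in these places.

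The wider AP-1 circuit was followed in 4 lists. Of 22 known AP-1 target genes tested, 8 were higher and 0 lower in KO 6 h livers, and 9 higher and 0 lower in WT 6 h livers, where 4.11% of all genes were called higher in the KO and 4.16% in the WT. The list's median log2 change was 1.29 in the KO and 2.22 in the WT. Hmox1 rose by 2.90 in both (SE 0.56 in the KO and 0.57 in the WT). In the KO, Sphk1 rose by 4.83 (SE 0.82) and Hbegf, an EGF-receptor ligand that acts on hepatocytes, by 4.97 (SE 0.86). In the WT, Sphk1 rose by 3.30 (SE 0.79) and the chemokine gene Ccl2 by 3.09 (SE 0.75).

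At 24 h target genes, too, were called in KO and not in WT livers against sham. In KO 24 h livers 10 of the 22 target genes were higher than in sham and 1, Plau, was lower, with a median of 1.70, where 15.9% of all genes were called higher and 28% in either direction. In WT 24 h livers 0 of 22 passed, with a median of 0.19, but only 0.925% of all genes were called there. Against WT at 24 h, KO livers had 6 of the 22 higher, among them Sphk1 by 5.12 (SE 0.97), Hbegf by 4.10 (SE 0.98), Hmox1 by 2.34 (SE 0.63) and Plaur, the urokinase receptor, by 3.16 (SE 0.86). Lower in KO were Plau, which encodes urokinase, and Tgfb1. Of all genes 11.1% were called higher and 18.6% in either direction. The interaction was called for 4 of 22, Sphk1 (5.93, SE 1.19), Hbegf (4.39, SE 1.18), Plaur (3.94, SE 1.07) and Hmox1 (2.44, SE 0.78), all with a larger change in the KO, where 8.47% of all genes were called in either direction. The medians of all genes in these comparisons lay within 0.05 of 0 on the log2 scale.

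Of 22 other leucine zipper factors that can pair with AP-1 proteins, 2 were higher and 1 lower in KO 6 h livers (6.62% of all genes in either direction), where the small Maf genes Maff and Mafk rose by 3.93 (SE 0.71) and 1.32 (SE 0.30) and Maf fell by 0.68 (SE 0.19). In WT 6 h livers 4 were higher (4.16% of all genes): Crem, a cAMP-responsive repressor and activator gene, by 2.61 (SE 0.37), Maff by 3.16 (SE 0.71), Mafk by 1.19 (SE 0.30) and Cebpb by 1.51 (SE 0.45). In KO 24 h livers 5 were higher and 2 lower than in sham, a share near the 28% of all genes called, and in WT 24 h livers 0 passed (0.925% of all genes). KO exceeded WT at 24 h in 3 of the 22 (Mafk, Cebpb and Atf4), a share near the 11.1% of all genes called higher. In 1 of the 22 the KO was lower, where 18.6% of all genes were called in either direction. The interaction at 24 h was called higher for 0 and lower for 2 (8.47% of all genes in either direction).

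Upstream of the family, factors and kinases were counted in the same way. Of 8 factors that bind the Fos promoter, Elk1 and Srf were higher in KO 6 h livers, by 1.24 (SE 0.27) and 0.92 (SE 0.24), and 0 were lower. In WT 6 h livers Elk1 rose by 1.44 (SE 0.28), Srf by 1.20 (SE 0.24) and Stat3 by 1.23 (SE 0.33), and 0 were lower. At 24 h KO livers had 3 of the 8 higher and 1 lower than sham livers, among them Elk4 by 1.11 (SE 0.27), and WT livers had 0 of 8. KO livers also had 3 of the 8 higher than WT livers at 24 h and 1 lower, Elk3. Beside these counts at 6 h, 6.62% of all genes were called in KO and 7.86% in WT livers against sham. At 24 h 28% were called in KO and 0.925% in WT livers against sham, and 18.6% in KO against WT. Of 22 kinases that act on AP-1, 2 were higher and 1 lower in KO 6 h livers (6.62% of all genes in either direction). In WT 6 h livers 3 were higher and 2 lower (7.86% of all genes). In KO 24 h livers 5 were higher and 2 lower, led by Mapk13, a p38 kinase, by 3.28 (SE 0.70), Map3k8 by 2.52 (SE 0.56) and Mapk8, which encodes the Jun kinase JNK1, by 1.41 (SE 0.34), a share again near the 28% of all genes. In WT 24 h livers 0 of 22 passed (0.925% of all genes). KO against WT at 24 h gave 2 higher, Map3k8 and Mapk8, and 4 lower, led by Mapk12 and Mapk11, where 11.1% of all genes were called higher and 18.6% in either direction. Transcript levels of kinases say nothing of their activity.

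Marker genes of other cells moved with some of these comparisons, and their part in the AP-1 results was not tested. Summed neutrophil markers were 13.8 to 29.8 CPM in KO 6 h livers and 31.7 to 79.7 CPM in WT 6 h livers, against 3.79 to 10.3 CPM in KO sham and 2.79 to 12.6 CPM in WT sham livers. Of 10 neutrophil genes tested, 5 were called higher in WT 6 h livers and 0 in KO 6 h livers, where 4.16% of all genes were called higher in the WT and 4.11% in the KO. Their median log2 change was 3.37 in the WT and 1.56 in the KO. KO against WT at 6 h called 0 of the 10 (0.116% of all genes), and the interaction at 6 h also called 0 (0% of all genes). At 24 h the counts below stand beside 28% of all genes called in KO livers against sham and 18.6% in KO against WT. Kupffer cell markers summed to 112 to 358 CPM in KO 24 h livers and 253 to 528 CPM in WT 24 h livers. Lower in KO 24 h livers were 8 of 10 against KO sham livers and 3 of 10 against WT 24 h livers. Sinusoidal endothelial markers summed to 60.5 to 86.5 CPM in KO 24 h livers and 105 to 239 CPM in WT 24 h livers. Of these, 7 of 9 were lower in KO than in WT livers at 24 h. Against KO sham livers, 6 of 9 were lower and 1 higher in KO 24 h livers. T and NK cell markers were 0.679 to 2.25 CPM in KO 24 h livers and 1.90 to 2.61 CPM in WT 24 h livers. In KO 24 h livers 6 of 9 were lower than in KO sham livers, but only 1 of 9 was lower than in WT 24 h livers. T and NK markers with 0 counts were Ncr1 in KO 24 h replicate 1, Cd3d, Gzma and Ncr1 in replicate 2, Cd3g, Nkg7 and Gzma in replicate 3, and Cd3g, Gzmb and Ncr1 in replicate 4, whereas none was at 0 in WT 24 h livers. No Kupffer or endothelial marker was at 0 in any library, and the neutrophil markers at 0 in some 6 h livers were Ly6g and Elane in the KO and Mpo and Elane in the WT. Hepatocyte markers summed to 99569 to 172100 CPM in KO 24 h livers and 46831 to 90256 CPM in WT 24 h livers, with no overlap, and 3 of 9 were called higher in KO and 0 lower. Cholangiocyte markers overlapped, at 19.2 to 158 CPM in KO 24 h livers and 18 to 55.0 CPM in WT 24 h livers. Of these markers 2 of 6 were higher in KO than in WT at 24 h, Sox9 by 3.85 (SE 0.82) and Epcam by 1.98 (SE 0.66). In the interaction at 24 h 3 of 6 were called higher, where 5.52% of all genes were called higher and 8.47% in either direction.

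Genes of heat shock and tissue handling can rise together with immediate early genes during sampling, and their part in the AP-1 results was not tested. None was called higher after hepatectomy at 6 h or 24 h. Of 11 tested, 0 were higher and 2 lower in KO 6 h livers (Dnajb1 and Hspa1b), beside 6.62% of all genes called. In KO 24 h livers 0 were higher and 4 lower (28% of all genes). In WT livers 0 passed at 6 h (7.86% of all genes) and 0 at 24 h (0.925%). The list's median log2 change at 6 h was -0.46 in the KO and 0.43 in the WT, against -0.00 and 0.02 for all genes. Between genotypes at 24 h only Bag3, a co-chaperone gene, differed, higher in KO by 1.59 (SE 0.49), where 18.6% of all genes were called. The summed level of the 11 genes was 1534 to 2151 CPM in KO 24 h livers and 913 to 2193 CPM in WT 24 h livers. At 6 h it was 1617 to 2851 CPM in KO and 2053 to 3796 CPM in WT livers. In sham livers it was 1368 to 3399 CPM in the KO and 1210 to 4919 CPM in the WT.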

How the data were processed

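RNA was measured in 37 mouse liver samples with a stranded mRNA library kit, per the labels' protocols. The authors deposited 1 table of expected counts per gene, which hold whole numbers. The submitters' processing notes name STAR 2.5.3a, RSEM 1.3.0 and the build GRCm38, while annotation release and filters are not given in the sources used here. Total counts ranged from 26232544 to 48827025 per library, and this depth sets the precision of low genes such as Fosl1. No 2 libraries of a group agreed within sampling noise (lowest chi-square per degree of freedom 32.1).

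The 8 members and the gene lists were chosen with earlier results of these data known. Of the list symbols, 2 are older names not in the table. Counts were fitted with edgeR 4.0.16 in R 4.3.3: filterByExpr kept 15564 genes, scaling was TMM, and 1 robust quasi-likelihood model held the 10 groups and sex, with a common biological coefficient of variation of 0.39. P-values were adjusted by Benjamini and Hochberg's method over all 15564 genes (threshold 0.05), and SE was taken as the size of the log2 change over the root of its F statistic. There were 18 comparisons: 8 of hepatectomy against sham, 5 of KO against WT by stage, 4 interactions and 1 average over stages. The fit was also run on simulated counts with known changes in the KO 24 h group. These counts held no sex effect and no outlying library, and the outcome is not given here. Named genes were the 8 members, Nox4 and at most 4 genes per list and comparison, those with the smallest p. Values of some genes that this rule would name are not reported here. The genes nearest in expression were the 3 with the highest Pearson r per member.

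Alternatives were RLE scaling, DESeq2 1.42.0, a model with no sex term, no filter on counts, the compared groups alone, males alone, omission of the 6 h sham livers and omission of each library. Scaling by library size alone was added after seeing the data. Promoter windows came from RefSeq (GRCm38.p6) and lengths and positions from GENCODE M21. Figures were drawn with matplotlib 3.10.9.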

Additional observations from a re-analysis of the deposited data

Results flagged for a closer look

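Fosl1 in WT 48 h replicate 3 stood at 1.45 CPM, far from the other WT 48 h livers at 0 to 0.0327 CPM. Fosl2 in WT 48 h replicate 4 stood at 6.76 CPM, below the other WT 48 h livers at 11.8 to 12.3 CPM. Each of the 45 gene and group sets of 4 or 5 livers, Nox4 included, was checked for such gaps, and chance flags about 1 in 20 of them.

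The change from sham at 24 h differed between the genotypes for 3 genes by the interaction test of edgeR, with Benjamini-Hochberg adjustment over 15564 genes. The difference, KO change minus WT change, was 9.43 on the log2 scale for Fosl1, 1.66 for Jund and 2.97 for Atf3. Leaving out single libraries moved these values over 8.59 to 11.3 for Fosl1, 1.25 to 1.84 for Jund and 1.87 to 3.28 for Atf3, all positive. The calls were lost in 2, 5 and 8 of 17 such fits, in the same order of genes. A fit of the compared groups alone lost all 3 calls. Atf3 also lost its call in male libraries alone, without the 6 h sham livers and with scaling by library size alone.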

How the results depend on the processing

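The directions of all 40 member values in the 5 comparisons with calls (KO 6 h, WT 6 h and KO 24 h against sham, KO against WT at 24 h and the interaction at 24 h) were the same under every alternative. The number of the 8 genes called was not. Leaving out single libraries gave 3 to 8 in KO 6 h, 1 to 6 in WT 6 h, 4 to 8 in KO 24 h, 2 to 7 in KO against WT at 24 h, 0 to 8 in the interaction at 24 h and 0 to 1 in WT 48 h, and 0 in the other comparisons. Fits of the compared groups alone called 2 in KO 6 h, 0 in WT 6 h, 6 in KO 24 h, 0 in KO against WT at 24 h and 0 in the interaction at 24 h. Male libraries alone gave 4 in KO 6 h, 0 in WT 6 h and 6 in KO 24 h. Without a sex term WT 6 h had 8 and KO 24 h 7, and RLE scaling gave 7 in KO 24 h. DESeq2 called 7 in the interaction at 24 h and 1 in WT 7 d. Without the count filter there were 8 in WT 6 h, 8 in KO against WT at 24 h, 8 in the interaction at 24 h, 3 in WT 7 d, 2 in WT 48 h, 2 in KO against WT at 48 h, 2 in the average over stages, and 1 each in KO against WT at sham and the interactions at 6 h and 7 d. Without the 6 h sham livers WT 48 h had 1, KO 6 h gained Junb, and WT 6 h gained Fosb and Junb. In the same setting KO against WT at 24 h gained Jun and Junb, and the interaction at 24 h lost Atf3. DESeq2 also gained Junb in KO 6 h, and Fosb and Junb in WT 6 h. Some other changed counts are not listed here. Shares of all genes called under the alternatives are not given beside these counts, which show only how the number of member calls moved. The cause of these differences was not tested. In the comparisons with no call, 183 of 2084 member values changed sign under some alternative, none of them called. Scaling by library size alone moved the median of all genes to -0.269 in KO 6 h, -0.39 in WT 6 h, -0.203 in KO 24 h, -0.386 in KO against WT at 24 h and -0.477 in the interaction at 24 h, and it changed no member's direction in these 5 comparisons. Depth limits Fosl1 in sham livers, which had at most 9 counts. No paired analysis was possible because the labels give no replicate numbers or animals that would link libraries across groups.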
